A study of Homo sapiens with 8 samples.

Results

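The regions described here are the 5'-most m6A peaks of genes that carry several of them in HCT116 cells. They were chosen from the authors' deposited table of m6A peaks by grouping peaks by gene identifier, keeping genes with at least 4 peaks and taking, for each, the peak nearest the 5' end on the gene's strand. The rule gave 1140 peaks on 1140 genes, of 22626 peaks on 12009 genes in all. HCT116 is an established human colorectal cancer line. The cells stably carried either a hairpin against the RNA demethylase ALKBH5 (shALKBH5, AL1 in the labels) or the control hairpin (shNC, NC in the labels). From fragmented poly(A) RNA, the fragments captured by an anti-m6A antibody (IP) and a saved, uncaptured portion (input) were sequenced. The 4 groups are shALKBH5 IP, shALKBH5 input, shNC IP and shNC input, with 2 libraries each. The series' design text gives its purpose as describing where m6A that depends on ALKBH5 lies. Nothing in the labels says that the libraries of a group came from separate cultures or from more than 1 clone, and they name a single ALKBH5 hairpin.

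N6-methyladenosine (m6A) is a methyl mark on internal adenosines of messenger RNA, added in the nucleus by the METTL3 and METTL14 complex and removed by the demethylases ALKBH5 and FTO. In human transcripts it is known to be dense near stop codons, in 3' untranslated regions and in unusually long internal exons, and sparse near the transcript's start. Adenosine next to the cap can carry a related mark, m6Am, which anti-m6A antibodies also bind, so a peak at a transcript's first base may hold either mark and the assay does not tell them apart.

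Each peak comes with the authors' enrichment of IP over input as a linear ratio, and with the authors' log2 fold between the arms, its p-value and its false discovery rate (FDR). Values per library were not analysed here. No value below therefore has a replicate error, the depth of the libraries is unknown, and every p and FDR is the authors' own. The sources used here do not give which arm is the numerator of the log2 fold. A fold is therefore named by its sign alone, without reading it as more or less m6A in shALKBH5 than in shNC cells. They also do not say if transcript level was taken out of the folds, so m6A and transcript level cannot be told apart. With no transcript level analysed, ALKBH5 itself could not be used to check the knockdown. A peak is called where its deposited FDR is at most 0.05.

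The sequences below show transcript starts that 5'-most peaks covered, since a start is where the antibody can meet the cap-adjacent mark as well as m6A. The first set holds all called 5'-most peaks whose exon blocks covered a start in RefSeq's promoter table (8 peaks, chosen after their values were seen). Each run is 30 bases of GRCh38.p14 from RefSeq, on the transcribed strand, and every base of it lay within the peak. Capitals mark the first transcribed base and the letters GGAC, the core of the m6A consensus. For DSE and YWHAE, whose GGAC lies further in, bases 21 to 50 of the transcript are shown, and for the others bases 1 to 30.
JUN, minus strand, chr1:58784018-58784047: Gctcagagttgcactgagtgtggctgaagc
FAT1, minus strand, chr4:186723827-186723856: Gagcgtgaggcgccggcgccgagctgggcg
AP3S1, plus strand, chr5:115841935-115841964: Agggggcgggtggggaaggatcgcaggcga
DSE, plus strand, chr6:116280106-116280135: ctgagtctggaagcgcGGACgacccacctt
HNRNPA2B1, minus strand, chr7:26200717-26200746: Agtagcagcagcgccgggtcccgtgcggag
MALAT1, plus strand, chr11:65499045-65499074: Aggcattgaggcagccagcgcaggggcttc
NMT1, plus strand, chr17:45061317-45061346: CtcgcaactcaagatggcGGACgagagtga
YWHAE, minus strand, chr17:1400173-1400202: ttgctgcccGGACgcggagcgagaggctga

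Among these 8 peaks, 6 had a positive fold in the authors' deposited table. HNRNPA2B1, which encodes a nuclear RNA-binding protein described as an m6A reader, had the largest log2 fold of them, 1.92 (FDR 0.0245), at an enrichment of only 1.99-fold. AP3S1, a subunit of the AP-3 vesicle coat, stood at 1.38 (FDR 0.00132) and its peak shares bases with a peak of another gene. NMT1, an N-myristoyltransferase, stood at 1.13 (FDR 0.0240). Smaller positive folds were listed for the giant cadherin FAT1 (0.79, FDR 5.0e-88), the AP-1 subunit JUN (0.71, FDR 0.0372) and the 14-3-3 protein YWHAE (0.64, FDR 0.0182). The negative ones were those of DSE, a dermatan sulfate epimerase (-0.75, FDR 0.0309), whose peak also shares bases with a peak of another gene, and of the abundant nuclear long non-coding RNA MALAT1 (-0.295, FDR 1.3e-42). With p doubled, JUN (FDR 0.0748) and DSE (FDR 0.0611) were no longer called. MALAT1 and FAT1 show that a very small FDR in this table can go with a small fold. Their peaks are long, with 2963 and 4440 exonic bases, so the start is only a small stretch of each.

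The second set holds starts under the 8 most enriched 5'-most peaks that cover the gene's outermost annotated start, from the same table and build, for the 5 genes with an entry there. FAT1, at 19.1-fold, covers only a start further in and stands in the first set. None of the 5 peaks was called, and none of their first 50 transcribed bases held GGAC.
UTP14C, plus strand, chr13:52024691-52024720: Gcctttgctaaattgctgaataagaagatg
SMAD3, plus strand, chr15:67065602-67065631: Gaaacacagactgggagcgggcgggagcgg
CTNNB1, plus strand, chr3:41199505-41199534: Aagcctctcggtctgtggcagcagcgttgg
ALCAM, plus strand, chr3:105366909-105366938: Agagcagcccggagaccgctgccgccgctg
RNF43, minus strand, chr17:58417505-58417534: Gggagttgatccagaattgtctttctgaaa

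In the authors' deposited table the enrichments behind these starts were 21.1-fold for UTP14C, a ribosome biogenesis factor, 20.3-fold for SMAD3, a mediator of TGF-beta signals, and 19.7-fold for CTNNB1, which encodes beta-catenin. ALCAM, a cell adhesion molecule, had 19.1-fold, and RNF43, a ubiquitin ligase that removes Wnt receptors from the cell surface, had 18.5-fold. The log2 folds between the arms ran from -0.39 for RNF43 (FDR 0.327) to 1.72 for ALCAM (FDR 0.0708). The peaks of UTP14C, SMAD3 and RNF43 share bases with a peak of another gene, so their assignment is uncertain.

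Across all 5'-most peaks that covered a start of the promoter table, the first transcribed base was A in 43 of 79 (54.4%, exact binomial 95% interval 42.8 to 65.7). It was G in 30 (38.0%). A stood first in 50.2% of the 22175 promoters of protein-coding genes, in 44.4% of all 35116 promoters and in 47.7% of the 1304 starts of genes whose 5'-most peak covered none. The motif GGAC, searched on the transcribed strand in the first 50 bases, was in 16 of the 79 (20.3%, 12.04 to 30.8) and in 18.9% of all promoters. The longer GGACT, whose matches are all also matches to GGAC, was in 5 (6.33%) and in 4.901% of all promoters. On both motifs the intervals of the covered starts include the shares of all promoters, as they do for A as first base. These intervals, and all others given here, cover counting error only, since peaks of 1 table share their libraries.

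Being 5'-most among a gene's peaks did not place a peak at the gene's start. The RefSeq gene table matched 1121 of the 1140 genes by symbol or synonym, and the other 19 are not named in the file. Only 69 of the matched peaks (6.16%, 4.82 to 7.73) covered the gene's outermost annotated start, 118 (10.5%) reached its first 50 bases and 301 (26.9%) had their 5' edge within 1000 bases of it. The median distance from the start to the peak's 5' edge was 10959 bases, with quartiles of 593 and 45330, introns included. In 450 genes (40.1%) that distance was over 10000 and up to 100000 bases and in 128 (11.4%) it was over 100000. In 26 genes the peak lay wholly upstream of the annotated start. The annotation used gives no exons, so whether a distant peak lies in the coding sequence or in an untranslated region was not analysed here.

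**Figure D1:**
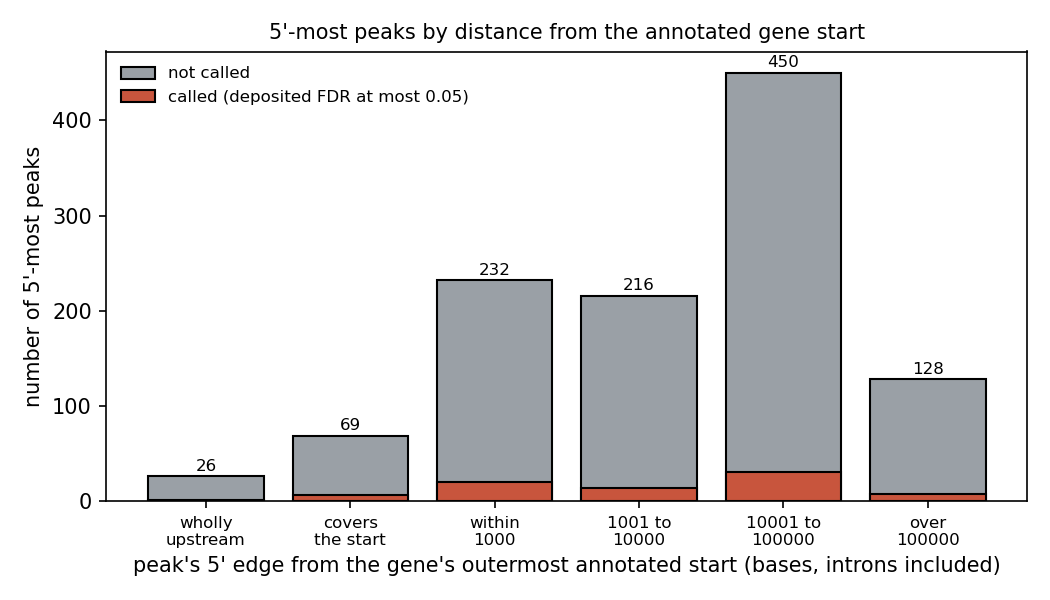
Number of 5'-most peaks (y axis) in 6 classes of distance in bases from the gene's outermost annotated start to the peak's 5' edge (x axis), with called peaks in red at the foot of each grey bar. The largest class, with 450 peaks, lies over 10000 and up to 100000 bases from the start, and 69 peaks cover the start itself.

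The share that covered the start was lower for 5'-most peaks of genes with more peaks, a difference that was not tested. It was 5.14% (27 of 525) where a gene had at least 5 peaks and 3.54% (9 of 254) where it had at least 6. It was 7.32% (6.001 to 8.82) for genes with exactly 3 peaks, just outside the rule, and 7.62% (6.71 to 8.62) for genes with exactly 2. Sole peaks of genes with a single peak covered the start in 2.95% of cases. All 21141 matched peaks did so in 2.70%. Since the rule takes the peak nearest the 5' end, part of the excess of 5'-most peaks over both follows from the rule. For the other peaks of the multi-peak genes the rule itself keeps the share that covers the start low. It was 0.18% (6 of 3340) for inner peaks, and 0 of 1121 for 3'-most peaks, which allows up to 0.329%.

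Enrichment of 5'-most peaks had a median close to that of peaks elsewhere. Its median in the authors' deposited table was 10.4-fold, with quartiles of 5.21 and 16.9 and a range of 1.18 to 96.8. The 3'-most peaks of the same genes had a median of 10.6-fold, inner peaks 10.7-fold and all peaks 10.1-fold. Peaks that covered the annotated start had a lower median of 6.56-fold, and those over 10000 and up to 100000 bases away had 11.3-fold. The highest value, 96.8-fold, belonged to TSC1, which restrains mTOR signalling, and the lowest, 1.18-fold, to KDM5B, a histone demethylase. Called 5'-most peaks had a median of 7.99-fold, against 10.7-fold in those not called. The same order held for 3'-most peaks (7.76 against 10.7), inner peaks (7.23 against 10.7) and all peaks (5.93 against 10.5).

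The share of peaks listed as more than 1 exon block was higher for 5'-most peaks than for inner and 3'-most peaks of the same genes, and about the same as for 5'-most peaks of genes with exactly 3 peaks (575 of 1413, 40.7%). Their median exonic length was 300 bases (quartiles 181 and 510), as for all peaks. Of the 1140, 454 (39.8%, 37.0 to 42.7) were listed as more than 1 exon block, against 927 of 3392 inner peaks (27.3%), 162 of 1140 3'-most peaks (14.2%) and 6883 of all 22626 peaks (30.4%). The most blocks in a 5'-most peak were 7, and 34 of these peaks had 4 or more. In the 606 genes with exactly 4 peaks the share listed as more than 1 block was 40.8% for the first peak from the 5' end, 35.6% for the second, 24.8% for the next and 16.2% for the last. The sources used here do not name the authors' peak caller, and how it joined blocks can set these shares.

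The comparison of the arms called 80 of the 1140 5'-most peaks (7.02%, 5.603 to 8.66), against 8.23% of all peaks. Of these, 45 had a positive fold (3.95% of the 5'-most peaks, against 5.74% of all peaks) and 35 a negative one (3.07%, against 2.49%). The share called was thus near that of the table, and the counts are no result about 5'-most peaks as a class. An unadjusted deposited p of at most 0.05 was listed for 209 of the 1140, and for 4493 of all 22626 peaks, a slightly higher share. The median log2 fold of the 5'-most peaks was 0.14 (quartiles -0.57 and 0.81), and the median of all peaks was also 0.14. That shift of all peaks bears on every sign given here.

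Among called peaks, the share with a positive fold was lower at the 5' end of these genes than at the 3' end. This held with the deposited folds and with recentred ones, but the intervals overlap in both and the difference was not itself tested. The share was 56.3% (44.7 to 67.3) for 5'-most peaks, 60.7% (53.9 to 67.3) for inner peaks, 75.3% (58 of 77, 64.2 to 84.4) for 3'-most peaks and 69.7% (67.6 to 71.8) for all peaks. With the median of all peaks subtracted and calls made again, the split was 26 positive and 46 negative among 5'-most peaks (36.1%, 25.1 to 48.3). After the same step it was 44 positive and 30 negative (59.5%, 47.4 to 70.7) among 3'-most peaks, and 53.04% positive among all peaks. Whether most called 5'-most peaks are positive or negative thus turns on where the folds are centred. The recentred calls came to 6.32% of the 5'-most peaks, against 7.78% of all peaks. No deposited p is above 0.773, 283 of the 5'-most peaks have one over 0.5, and the sources used here do not say on how many sides it was tested. With p doubled and adjusted again, as a one-sided p would require, 54 remained called (4.74% of the 5'-most peaks, against 6.36% of all peaks). Of these, 32 were positive and 22 negative (59.3% positive, against 73.8% for 3'-most peaks after the same step).

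**Figure D2:**
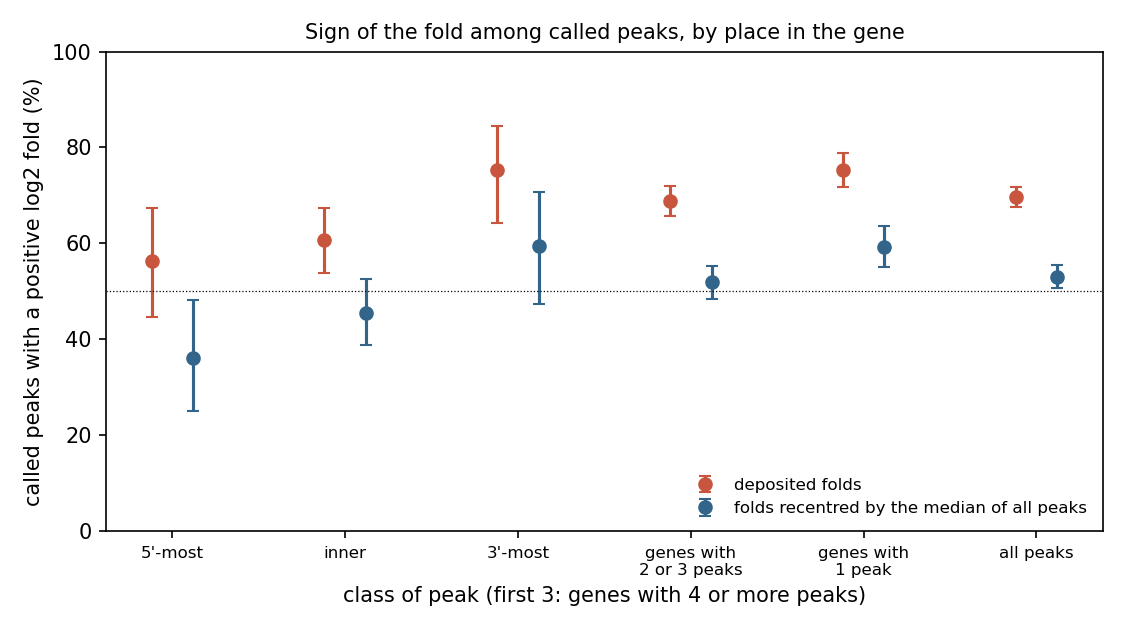
Percent of called peaks with a positive log2 fold (y axis) by class of peak (x axis), from deposited folds (red) and from folds recentred by the median of all peaks (blue). Bars are exact binomial 95% intervals for counting error, and the dotted line marks an equal split. The 5'-most peaks stand at 56.3% and, recentred, at 36.1%, below the 3'-most peaks at 75.3% and 59.5%, with overlapping intervals in both colours.

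A finer look by place used the 606 genes with exactly 4 peaks, which lie just inside the rule. From the 5' end, the shares positive among called peaks were 56.8% (25 of 44), 67.3% (37 of 55), 58.0% (29 of 50) and 73.6% (39 of 53). The intervals of the first (41.0 to 71.7) and the last (59.7 to 84.7) overlap, and the 2 between do not follow an even slope. Just outside the rule, the 5'-most peaks of the 1413 genes with exactly 3 peaks had 59 positive and 36 negative calls (62.1%, 51.6 to 71.9). Their median enrichment was 9.56-fold, against 10.7-fold for the 5'-most peaks of genes with exactly 4.

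By distance from the start, the share called lay between 3.85% and 8.70%, against 8.23% of all peaks. Of the 26 peaks wholly upstream 1 was called, with a negative fold. Of the 69 peaks that cover the annotated start 6 (8.70%) were called, 5 positive and 1 negative. Of the 232 others within 1000 bases downstream 20 (8.62%) were called, 11 positive and 9 negative. Further out, the classes of over 1000 and up to 10000, over 10000 and up to 100000, and over 100000 bases held 14 (6.48%), 31 (6.89%) and 8 (6.25%) called peaks, of which 6, 17 and 6 were positive. More than 1 exon block was listed for 29 of the 45 positive and 13 of the 35 negative called peaks, against 39.8% of all 5'-most peaks. Both signs had a median exonic length of 450 bases, and a tie between sign and blocks was not tested.

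The positive folds had a median of 1.21 and the negative ones of -1.40 on the log2 scale, and 56 of the 80 called peaks were at least 1 in size. The 12 largest positive folds fell on genes of varied function. SIPA1L1, a regulator of Rap GTPases, led with 3.48 (FDR 0.0479) in the authors' deposited table, at an enrichment of 2.76-fold, and its peak shares bases with a peak of another gene. ZNF317, a zinc finger protein, followed with 3.38 (FDR 0.00851), on 2 exon blocks within chr19:9158904-9160408. GNAZ, the alpha subunit of a heterotrimeric G protein, had 2.72 (FDR 0.0468) and is described again among the opposite pairs. ZC3H18, which links the nuclear cap-binding complex to RNA decay, had 2.54 (FDR 0.0234) in a peak that begins 30 bases from the gene's start (chr16:88570433-88577724). OSMR, the receptor subunit for the cytokine oncostatin M, had 2.15 (FDR 0.00631) at chr5:38883852-38885418.

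The remaining large positive folds lay between 1.55 and 1.95. They belonged to DSP, HNRNPA2B1, ZFP36L1, GTF2F1, ZBTB18, KLF4 and ZNF217. GTF2F1, a subunit of the general transcription factor TFIIF, had 1.85 (FDR 6.6e-04) at chr19:6389449-6391923. The transcriptional repressor ZBTB18 had 1.72 (FDR 0.00646) at an enrichment of 25.9-fold, and the zinc finger factor ZNF217 had 1.55 (FDR 0.00631) at 20.5-fold. In each of these genes the other peaks had smaller folds or the opposite sign, except that the 3'-most peak of ZBTB18 stood at 1.77 and was not called. Of the 12, SIPA1L1, GNAZ and KLF4 were no longer called with p doubled or with folds recentred.

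Negative folds reached further from 0. SGO2, shugoshin 2, which protects cohesin at centromeres, had -4.23 (FDR 0.0120) at an enrichment of 60.2-fold (chr2:200571160-200571818). The gene's other peaks, in order toward the 3' end, stood at -2.58, -1.51 and 0.68, and none of these was called. UBN1, a subunit of the HIRA histone chaperone complex, had -4.19 (FDR 0.00832) at chr16:4852881-4853150, and its next peak stood at -3.29, not called. SHB, an SH2 domain adaptor, had -3.44 (FDR 0.00933) in a peak 269 bases from the start, while its other peaks lay between -0.68 and 0.12. RUSC2, a RUN and SH3 domain protein, had -3.32 (FDR 6.9e-04), and of its 5 peaks the middle one was also called, at -1.60.

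TBC1D24, a TBC domain protein mutated in epilepsy and deafness, had -3.25 (FDR 0.0141), in a peak that shares bases with a peak of another gene. The other 7 of the 12 largest negative folds, between -2.49 and -1.81, fell on KBTBD11, UACA, TBC1D14, MIDEAS, FBXO2, PHLDB1 and GPRC5B. TBC1D14, which binds the recycling endosome GTPase RAB11 and restrains autophagy, stood at -2.07 (FDR 0.0263) with an enrichment of 1.82-fold. MIDEAS, a subunit of a histone deacetylase complex, stood at -2.01 (FDR 0.0363), and FBXO2, an F-box protein that recognises glycoproteins, at -1.91 (FDR 0.0309). All 12 stayed called with folds recentred, but that step moves every negative fold further from 0 and is no check of them. With p doubled, UACA, KBTBD11, TBC1D14, MIDEAS, FBXO2 and GPRC5B were no longer called.

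**Figure D3:**
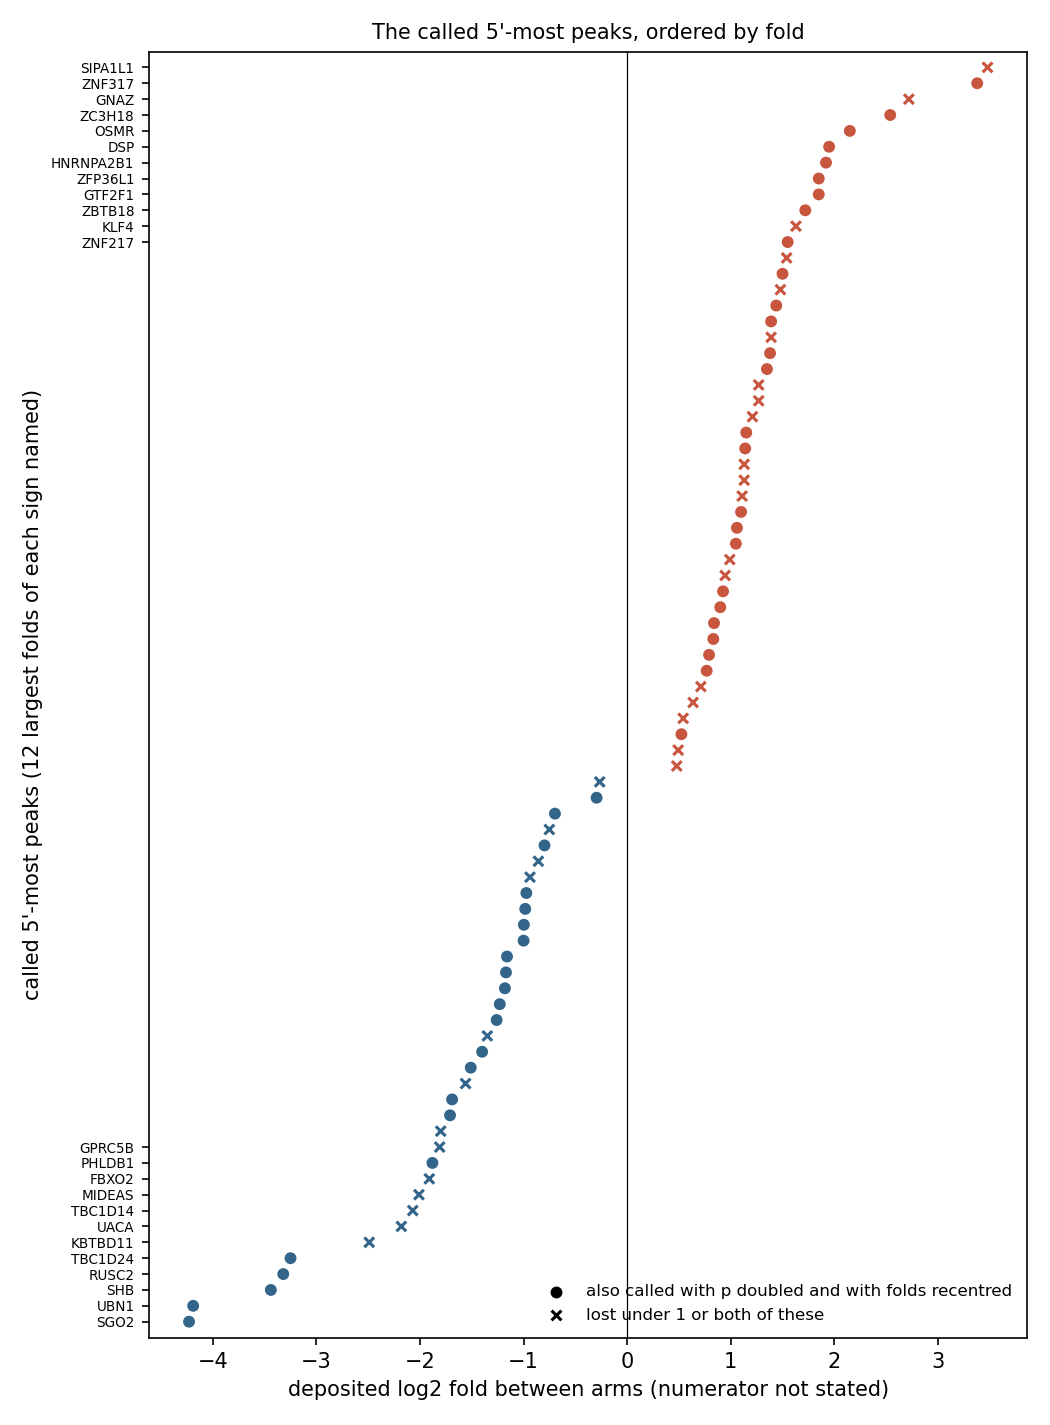
Deposited log2 fold between the arms (x axis, numerator not stated) of the 80 called 5'-most peaks, ordered by fold, with positive folds in red and negative ones in blue and the 12 largest of each sign named. Filled circles were also called with p doubled and with folds recentred, and crosses were lost under 1 or both of these. The folds run from 3.48 for SIPA1L1 to -4.23 for SGO2.

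Within a gene, the fold of the 5'-most peak said little about that of the 3'-most peak. The signs were the same in 623 of 1140 genes (54.6%), and the median of the 5'-most minus the 3'-most fold was -0.03. Pearson's r across the 1140 genes was 0.07 and Spearman's rho 0.10. Over the 98 genes whose peaks both had a deposited log10 p of at most -20, r was 0.22 and 56 pairs (57.1%) had the same sign. These correlations are descriptions across genes that share libraries, and both peaks of a pair share a transcript. The 5'-most peak was the more enriched of the pair in 590 genes (51.8%).

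Both peaks were called in 14 genes, the 5'-most alone of the pair in 66 and the 3'-most alone in 63. The 14 are 17.5% of the genes with a called 5'-most peak and 18.2% of those with a called 3'-most peak, while 7.02% of all 5'-most and 6.75% of all 3'-most peaks were called. Of the 14, 7 were positive at both ends, 2 negative at both and 5 of opposite sign. Any peak was called in 279 of the 1140 genes, and in 54 of them the 5'-most peak was the only one called. Each gene has at least 4 peaks, and 6.31% of inner peaks and 8.23% of all peaks were called. Neither count is therefore a result about the 5' end.

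**Figure D4:**
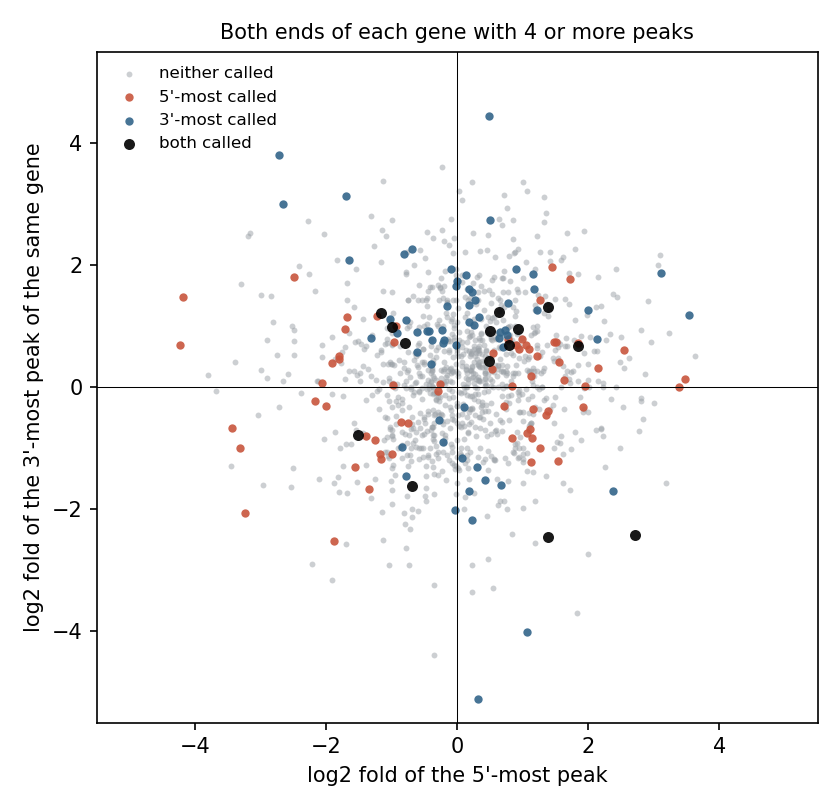
Deposited log2 fold of the 3'-most peak (y axis) against that of the 5'-most peak (x axis) of each of the 1140 genes. Grey points have neither peak called, red points the 5'-most, blue points the 3'-most and black points both. The black points, 14 in all, lie in every quadrant, and the cloud shows little slope (r of 0.07).

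The opposite pairs comprised 3 genes with a negative 5' end and 2 with a positive one. RAB11FIP1, an effector of RAB11 in membrane recycling, had -0.80 at its 5'-most peak (FDR 0.0129) in the authors' deposited table, and its 5 later peaks were all positive, from 0.21 to 0.73. AKAP8L, a nuclear A-kinase anchoring protein, alternated, with -1.17 (called), 1.10, -1.0 and 1.22 (called). In both genes the called peaks were only those at the ends.

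ZNF292, a zinc finger protein with 10 peaks, ran the other way, from 1.39 (FDR 0.0347) at the 5'-most to -2.45 at the 3'-most, both called. GNAZ had 2.72 at its 5'-most peak (FDR 0.0468, chr22:23070731-23095551), then -0.03, 0.19, a called 2.10 and a called -2.43. At an FDR of 0.01 none of the 5 opposite pairs remained, and 1 remained with p doubled and 3 with folds recentred. RAB5A, a GTPase of early endosomes, is the only gene among ALKBH5, RAB5A, FOXO3, AXIN2 and MYC with at least 4 peaks. Its 5'-most peak, 90 bases from the start (chr3:19947187-19947336), had a log2 fold of -1.70 with an FDR of 0.661 and an enrichment of 12.4-fold. Its later peaks stood at -2.60 (called), -0.28 and 3.13 (called), so its opposite calls lay beyond the 5'-most peak.

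**Figure D5:**
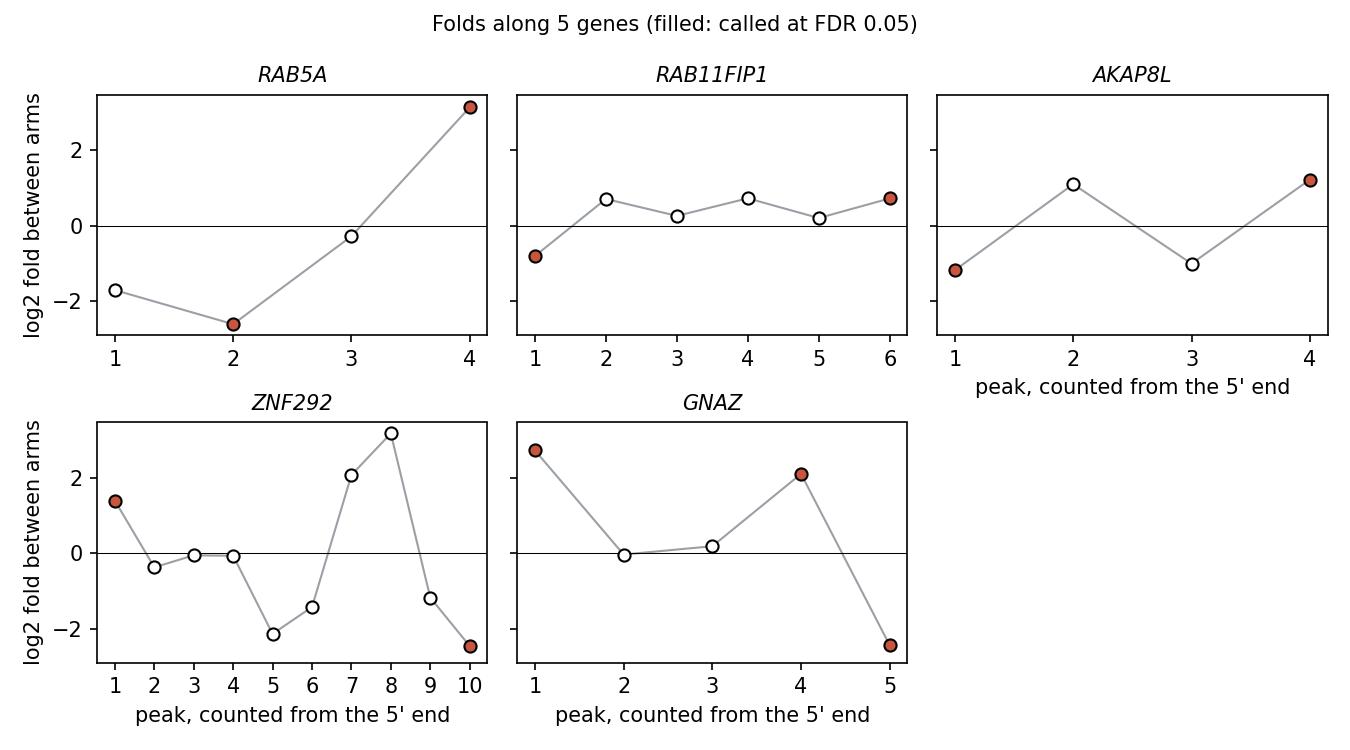
Deposited log2 fold between the arms (y axis) of every peak, counted from the 5' end (x axis), in RAB5A and in 4 of the genes whose 5'-most and 3'-most peaks were called with opposite signs. Filled points were called at an FDR of 0.05. RAB5A runs from -1.70 at its 5'-most peak, not called, to 3.13 at its last.

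Giant scaffold proteins, whose long exons carry many peaks, had 20 members among the 1140 genes, of which 7 were called, 4 positive and 3 negative, with a median log2 fold of -0.19. The share of all peaks called was 8.23%. FAT1 had 6 of its 7 peaks called and all 7 positive, with 0.79 at the 5'-most. The ubiquitin ligases HERC1 (1.27, FDR 0.0468) and HUWE1 (0.95, FDR 0.0191) were positive, but neither was called with folds recentred. Filamins crosslink actin. FLNA, filamin A, had a called 0.52 (FDR 1.0e-04) at the 5'-most peak but called -0.73 and -0.53 at inner ones. FLNC, filamin C, had -0.98 (FDR 1.8e-04) at its 5'-most peak, 150 bases from the start. EPPK1, an epithelial plakin with 14 listed peaks, some of which overlap, had -0.997 (FDR 3.1e-04) at the 5'-most peak and a called -1.08 at the next, which overlaps it.

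Immediate early genes and KLF factors had 7 members, of which 3 were called, all positive, with a median log2 fold of 0.71. At any position 20 of the list's 73 peaks were called, against 8.23% of all peaks. ZFP36L1, which binds AU-rich elements and promotes mRNA decay, had 1.85 (FDR 2.3e-04), then a called -0.79, then -0.10 and a called 0.67. KLF4, a transcription factor of epithelial differentiation, had 1.63 (FDR 0.0288) and peaks between -0.43 and 0.11 further on. JUN had 0.71 (FDR 0.0372) at the start, a called -0.91 at the next peak, then -1.37 and -0.31. The count of 3 became 1, ZFP36L1, with p doubled or with folds recentred.

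Genes of the m6A machinery had 5 members, and HNRNPA2B1 was the only one called, at 1.92 (chr7:26200630-26200780). With p doubled its FDR was 0.0490. At any position 5 of the list's 62 peaks were called, against 8.23% of all peaks. Over all 5'-most peaks 7.02% were called, and 1 call among 5 members is no result about the list. The writer subunit VIRMA had 1.93 with an FDR of 0.163, the nuclear reader YTHDC1 0.94 (FDR 0.553), the writer subunit ZC3H13 0.62 (FDR 0.537) and the methyltransferase METTL16 -0.10 (FDR 0.693). The median enrichment of the 5 was 2.77-fold, against 10.1-fold for all peaks.

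Wnt pathway genes had 9 members and no call, with a median log2 fold of 0.29 and a median enrichment of 18.5-fold. Over all 5'-most peaks 7.02% were called, so no call among 9 members is no result about the list. APC, the scaffold of the beta-catenin destruction complex, stood at 0.08 (FDR 0.681), and the kinase CSNK1D at 0.29 (FDR 0.641). Beta-catenin's CTNNB1 stood at 0.92 (FDR 0.478), and RNF43 at -0.39, while its next peak was called at -1.15. RAB and endosome genes had 6 members and no call (7.02% of all 5'-most peaks were called), with a median log2 fold of -0.01. Besides RAB5A they include ANKFY1, a RAB5 effector (-1.14, FDR 0.247), and VPS13D, a lipid transfer protein (0.40, FDR 0.383).

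Of the 5 members in the PI3K, FOXO and mTOR list, RPTOR was called at 1.54 (FDR 0.0355), in a peak 41 bases from the start. At any position 3 of that list's 48 peaks were called, against 8.23% of all peaks. RPTOR, the defining subunit of mTOR complex 1, was no longer called with p doubled or with folds recentred. Epithelial junction and keratin genes had 5 members, with DSP and KRT8 called. At any position 20 of the list's 59 peaks were called, against 8.23% of all peaks. DSP, desmoplakin, the plakin of desmosomes, had 1.95 (FDR 0.0107), and its other peaks ran from 0.02 to 0.57. KRT8, a keratin of simple epithelia, had -0.265 (FDR 0.0347) at an enrichment of 1.76-fold in a peak that shares bases with a peak of another gene, and a called 0.19 at its next peak. With p doubled the FDR of KRT8's 5'-most peak was 0.0686, so DSP alone of the pair stayed called.

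Chromatin regulators had 28 members and 2 calls, with a median log2 fold of -0.03. That count is near the share called of all 5'-most peaks, 7.02%, and is no result about these genes. CREBBP, a histone acetyltransferase, had 0.99 (FDR 0.0407) and CHD6, a chromodomain remodeller, had -1.56 (FDR 0.0309), and neither was called with p doubled. Of 7 stress response members, PPP1R15B was called at -1.23 (FDR 7.4e-08), 30 bases from the start (chr1:204411309-204411787). At any position 17 of that list's 67 peaks were called, against 8.23% of all peaks. PPP1R15B, which directs the dephosphorylation of the initiation factor eIF2 alpha, had a called 0.35 at its next peak. This change of sign between adjacent called peaks was also seen in JUN, ZFP36L1, KRT8 and FLNA. With p doubled the 5'-most peaks of JUN (FDR 0.0748) and KRT8 (FDR 0.0686) were no longer called. That of JUN was also lost with folds recentred. In KRT8 the positive fold of the pair, given above, is close to the median of all peaks, 0.14. How many genes of the whole table show such a change of sign was not counted.

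No member was called in the remaining lists. Each has few members, and 7.02% of all 5'-most peaks were called, so this is no result about them. TGF-beta and SMAD genes had 4 members, among them the receptor BMPR2 (2.43, FDR 0.470) and SMAD5 (0.68, FDR 0.695). Notch genes had 5, among them the coactivator MAML3 (0.42, FDR 0.646) and the corepressor SPEN (0.14, FDR 0.632, at an enrichment of 55.7-fold). Hippo genes had 3, with the kinases LATS1 at -2.85 (FDR 0.215) and TAOK1 at 0.85 (FDR 0.542). RNA decay and microRNA genes had 6, among them the silencing factor TNRC6C (1.52, FDR 0.353). MYC, p53 and cell cycle genes had 4, with the kinase CDK13 at -1.24 (FDR 0.542) and the DNA damage protein TP53BP1 at 1.23 (FDR 0.317). After recentring, 1 of these 4 was called. Folds over 2 in size without a call, as in BMPR2 and LATS1, show that the deposited FDR did not follow the size of the fold alone.

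As a check of the cell type, 4 of 10 markers of colorectal epithelium had any peak and 1, KRT8, was a member. Of the markers of fibroblasts 1 of 8 had a peak, and of those of leukocytes and of endothelium 0 of 7 and 0 of 5 had one. A peak requires m6A as well as expression, so a marker without one is not shown to be silent.

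Genes with the most peaks included AHNAK2 with 23, MPRIP with 16, EPPK1 with 14, and ALMS1, DST, VCAN and ZFHX4 with 13 each. Their 5'-most peaks differed widely in enrichment, from 2.05-fold in AHNAK2, a giant scaffold gene, to 19.1-fold in MPRIP. Of those named, EPPK1 was the only one whose 5'-most peak was called. The others' log2 folds ran from -1.04 in MPRIP, a myosin phosphatase interactor (FDR 0.340), to 2.09 in ALMS1, a centrosomal protein (FDR 0.489). The peak of VCAN, which encodes the proteoglycan versican, covered the gene's start, with 0.32 (FDR 0.690) and an enrichment of 3.66-fold.

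Among 5'-most peaks over the annotated start, the 8 most enriched lay between 18.5-fold and 31.8-fold, against a median of 6.56-fold for all 69. The highest was PDP1, a phosphatase that activates pyruvate dehydrogenase, whose log2 fold was 0.03 (FDR 0.670). VCPIP1, a deubiquitinase, followed at 30.4-fold with a log2 fold of -2.50 (FDR 0.389), and NHLRC2 stood at 23.1-fold with -2.06 (FDR 0.570). The other 5 are those whose starts are printed above. All 8 were outside the threshold in the authors' comparison of the arms.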

How the data were processed

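m6A immunoprecipitation and input libraries of HCT116 cells (8 libraries, 2 in each of 4 groups, grouped by title) were processed by the authors. BWA 0.7.12 and HOMER 4.9.1 stand beside the build GRCh38 in the submitters' processing notes, without a role for either. Which program made the peaks and their comparison the sources used here do not say. The labels' protocols name more than 1 antibody, fragment size and platform, and which applied is not given either. The deposited file is 1 peak list for the whole series. Per the file headers, it holds the authors' p-value of each peak, its logarithm and the log10 p and FDR of the difference (read as scores), the authors' fold enrichment (a linear ratio), and the authors' log2 fold between the arms. Coordinates are 1-based on GRCh38. Counts of single libraries were not used here. No test across libraries was therefore run, and the depth of each library is unknown.

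Peaks were grouped by gene identifier and ordered on the strand. A start counted as covered where an exon block of the peak held it. Gene starts came from the RefSeq gene table and first bases from the RefSeq promoter table, both GRCh38.p14, matched by symbol. Called means a deposited FDR of at most 0.05. Recentring subtracted the median log2 fold and recomputed p with a standard error implied by each fold with its p (taken as one-sided) for the 11573 peaks of p under 0.3, and predicted elsewhere (R2 of 0.90 for its logarithm). With no shift this gave 1867 calls, which follow from the deposited p by construction and are no check of the one-sided reading. Intervals are exact binomial (Clopper-Pearson, 95%). Python 3.11.15, pandas 2.3.3, numpy 2.4.6, scipy 1.17.1 and matplotlib 3.10.9 were used, and the steps were tested on simulated data.

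Named genes (68, with unnamed loci and pseudogenes passed over) are the called 5'-most peaks with the 12 most positive and the 12 most negative folds, the 8 genes with most peaks, the 8 most enriched peaks over the annotated start, up to 10 opposite pairs, ALKBH5, RAB5A, FOXO3, AXIN2 and MYC where they qualify, and, from each gene list, at most 4 called genes or, with none called, the 2 with most peaks. A few genes taken by this rule are not reported here. Others named (AP3S1, DSE, MALAT1, NMT1, YWHAE, TSC1, KDM5B, VIRMA, YTHDC1, ZC3H13, METTL16, HERC1 and HUWE1) were chosen after their values were seen. The 5'-most peaks and the gene lists were chosen with earlier results of these data known.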

Additional observations from a re-analysis of the deposited data

How the results depend on the processing

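The limits of these results are that no library has a value of its own, that the kind of the deposited p and the numerator of the fold are not given in the sources used here, and that enrichment and call depend on depth, which is unknown. No paired analysis was possible because the file holds no value per library, so replicate numbers could not be used, and leaving out a replicate could not be run for the same reason.

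The number of called 5'-most peaks was 38 at an FDR of 0.01 (3.33% of them), and it was 175, 36 and 15 where a multi-peak gene needed at least 3, 5 and 6 peaks. With p doubled the share called was 4.74%. Folds recentred by the median of all peaks gave 36.1% positive, against 56.3% before. Merging a gene's overlapping peaks (74 calls), leaving out peaks that share bases with another gene (72) or peaks enriched under 2-fold (76) moved the share positive by little, to between 55.4% and 56.9%. The share at the annotated start was 6.16% by coverage, 10.5% by overlap with the first 50 bases and 12.8%, 15.3%, 21.9% and 26.9% by an edge within 100, 200, 500 and 1000 bases. It was 3.54% in genes with at least 6 peaks and 8.67% for any start of the promoter table, an alternative chosen after seeing the data. With at least 6 peaks, the median enrichment was 9.0-fold and 43.02% of peaks had more than 1 block. Genes called at both ends numbered 4 at an FDR of 0.01 and 9 with p doubled. Opposite pairs numbered 0 at an FDR of 0.01, 1 with p doubled and 3 recentred. Of the 38 named genes with a called 5'-most peak, 16 stayed called at an FDR of 0.01, 23 with p doubled and 31 recentred. Recentring moves negative folds further from 0, so it checks positive calls only. Of the 45 positive called 5'-most peaks 26 stayed called. Fewer genes or a stricter threshold lower these counts by construction, and the cause of the other changes was not tested.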

Other observations

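The following called 5'-most peaks belong to no list used here and were chosen after their values were seen. In the authors' deposited table, NCL, which encodes nucleolin, had a log2 fold of 0.90 (FDR 1.6e-05), and ADAR, an adenosine deaminase of double-stranded RNA, had 0.49 (FDR 0.00302) at an enrichment of 25.2-fold. PPP1R10, a regulatory subunit of protein phosphatase 1, had -1.51 (FDR 7.8e-05) in a peak 4 bases from its start. DUSP4, a phosphatase of MAP kinases, had -1.16 (FDR 2.4e-07), and TAB2, an adaptor of inflammatory signalling, had 1.39 (FDR 1.6e-19) at 22.6-fold. ADAR was not called with folds recentred, and the others were, though that step moves the negative folds of PPP1R10 and DUSP4 further from 0.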
